A study of Mus musculus with 2 samples.

Results

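The genes described here are 9 genes of MHC class I antigen presentation, H2-K1, H2-D1, B2m, Tap1, Tap2, Tapbp, Psmb8, Psmb9 and Nlrc5, chosen by their symbols from the 32285 genes listed for mouse limb muscle cells. All 9 were found. Mononuclear cells were sorted alive from limb muscle and profiled on the 10x Genomics platform in 2 libraries, 1 labelled DMSO, the vehicle, and 1 labelled MVC, for the drug Maraviroc. The study's methods name aged C57BL/6 mice given the drug by intraperitoneal injection. The labels give no age, dose or number of animals behind either library. With 1 library a group no test between DMSO and MVC was possible, and every interval below is a 95% interval that covers counting error only, not the spread between mice.

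After removal of barcodes with fewer than 500 genes or with more than 10% mitochondrial unique molecular identifiers (UMIs, each standing for 1 captured RNA molecule), 5437 DMSO cells and 5454 MVC cells remained, with a median of 5802 and 5195 UMIs. The libraries shared 8 cell barcodes among the kept cells. The cells fell into 26 clusters that were named by markers, and 14 named classes held at least 30 cells in each library. These included endothelial (EC-like), fibro-adipogenic progenitor (FAP-like), muscle stem cell (MuSC-like), smooth muscle (SMC-like), macrophage-like, T/NK-like and B cell-like cells. The members, and all lists of related genes named below, were kept out of the genes used for clustering.

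MHC class I molecules show peptides from inside the cell to CD8 T cells. H2-K1 and H2-D1 encode classical heavy chains, and B2m encodes the light chain that each of them needs to reach the surface. The peptides come from the proteasome, in which Psmb8 and Psmb9 replace constitutive catalytic subunits to form the immunoproteasome, and Tap1 and Tap2 form the transporter that carries them into the endoplasmic reticulum. Tapbp encodes tapasin, which holds the empty heavy chain at that transporter. Nlrc5 is a transactivator that is recruited to class I promoters, and interferon-gamma is the best known inducer of the pathway. Endothelial and immune cells are known to carry much class I at rest, and muscle cells little.

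In the GRCm38 build, 7 of the 9 genes lie on chromosome 17, in the MHC. H2-K1 spans chr17:33996017-34000347 on the minus strand and H2-D1 chr17:35262730-35267499 on the plus strand. Psmb9 (chr17:34181987-34187764, minus), Tap1 (chr17:34187553-34197225, plus), Psmb8 (chr17:34197721-34201454, plus) and Tap2 (chr17:34203527-34216321, plus) follow one another, and Tapbp lies at chr17:33915899-33929292, plus. B2m is at chr2:122147686-122153083, plus, and Nlrc5 at chr8:94434356-94527272, plus. The gene bodies of Tap1 and Psmb9 overlap on opposite strands, as do those of B2m and Patl2. Of all 31-base words in the annotated transcripts of H2-K1, 22.8% also occur in transcripts of other genes, foremost H2-D1, and for H2-D1 the share is 26.7%. H2-Q7 and H2-Q4 are also among the genes that share most words with H2-K1 and with H2-D1. Reads from these parts could be assigned to another of these genes or lost, so the split between them is uncertain. For B2m, Psmb9 and Nlrc5 the share is 0%.

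Promoter windows of 300 bases, 250 before and 50 after the transcription start, were taken from RefSeq on GRCm38.p6 for the 7 members that the table held, all but Tap2 and Nlrc5. Those of H2-K1, H2-D1, B2m, Tap1 and Psmb8 are shown, because the pathway's known control runs through short elements near these starts. Each sequence is written along its gene's strand, and capitals mark matches, on either strand, to 5 motifs: GAANNGAAA, an interferon regulatory factor element, TTCNNNGAA, a gamma-activated sequence, GGGNNTTCC, an NF-kappaB site, CCAAT, the box bound by NF-Y, and TGACG, a cyclic AMP response half-site. No matches overlapped one another.
H2-K1 (chr17:34000298-34000597): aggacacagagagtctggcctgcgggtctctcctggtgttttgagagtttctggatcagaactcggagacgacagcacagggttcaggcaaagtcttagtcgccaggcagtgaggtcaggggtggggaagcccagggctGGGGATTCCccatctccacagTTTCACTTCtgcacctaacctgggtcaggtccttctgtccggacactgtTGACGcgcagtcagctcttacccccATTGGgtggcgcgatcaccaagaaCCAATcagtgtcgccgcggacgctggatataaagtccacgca
H2-D1 (chr17:35262844-35263143): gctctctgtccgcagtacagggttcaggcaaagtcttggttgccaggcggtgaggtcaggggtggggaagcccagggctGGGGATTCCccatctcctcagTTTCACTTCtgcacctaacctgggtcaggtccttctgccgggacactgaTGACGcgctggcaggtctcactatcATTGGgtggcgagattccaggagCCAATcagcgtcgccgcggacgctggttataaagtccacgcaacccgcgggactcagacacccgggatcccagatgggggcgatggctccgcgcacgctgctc
B2m (chr2:122147437-122147736): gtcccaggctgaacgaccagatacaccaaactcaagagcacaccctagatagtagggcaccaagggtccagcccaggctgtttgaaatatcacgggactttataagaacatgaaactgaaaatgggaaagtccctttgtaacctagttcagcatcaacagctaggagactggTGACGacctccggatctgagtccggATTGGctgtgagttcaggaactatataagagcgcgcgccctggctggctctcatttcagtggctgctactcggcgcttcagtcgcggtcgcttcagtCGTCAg
Tap1 (chr17:34187306-34187605): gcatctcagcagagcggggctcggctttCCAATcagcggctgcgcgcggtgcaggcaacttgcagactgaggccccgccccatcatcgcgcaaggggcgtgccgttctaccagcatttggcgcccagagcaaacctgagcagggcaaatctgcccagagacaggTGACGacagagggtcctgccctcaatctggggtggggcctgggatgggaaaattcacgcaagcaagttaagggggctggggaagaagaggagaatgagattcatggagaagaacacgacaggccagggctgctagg
Psmb8 (chr17:34197945-34198244): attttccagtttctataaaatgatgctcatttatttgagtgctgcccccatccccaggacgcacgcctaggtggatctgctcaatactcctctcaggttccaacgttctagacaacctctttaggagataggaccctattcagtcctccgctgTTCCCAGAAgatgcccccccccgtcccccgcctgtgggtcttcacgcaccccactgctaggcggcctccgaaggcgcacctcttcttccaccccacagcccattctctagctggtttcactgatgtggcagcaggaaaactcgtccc

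The windows of H2-K1 and H2-D1 held the same pair of elements, an NF-kappaB match followed 21 bases later by an interferon regulatory factor match on the other strand. In the H2-K1 window shown the pair began 111 and 90 bases before the start, and in H2-D1 171 and 150 bases before it. For another listed start of H2-K1 the pair began 125 and 104 bases before that start. H2-K1 and H2-D1 were the only members among the 7 with a match to either set of letters, which 5.82% and 7.52% of all 32817 promoter windows held. Other spacings of these elements were not searched, such as the gaaactgaaa in the B2m window. The CCAAT box was found in 6 of the 7 windows, against 37.4% of all windows, and the half-site TGACG in 5 of the 7, against 20.8%. Psmb8 was the member without a CCAAT box, and the single member with a gamma-activated sequence, which 8.29% of all windows held. The windows of Tap1 and Psmb9 are on opposite strands and share 275 bases. Their CCAAT and TGACG matches are the same sites in the shared bases, so each site is counted for both members. A match is only a run of letters, and these data measured no binding.

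B2m was highest in T/NK-like and endothelial cells and lowest in muscle stem cells. Levels are given in CPM, the UMIs of a gene in all cells of a class and library per 1000000 UMIs of the same cells. In T/NK-like cells B2m stood at 1322 CPM in DMSO and 1228 CPM in MVC, in EC-like cells at 1147 and 1066 CPM, in B cell-like cells at 1088 and 1078 CPM and in macrophage-like cells at 1089 and 901 CPM. FAP-like cells held 413 and 407 CPM and tenocyte-like cells 412 and 419 CPM. MuSC-like cells held 167 and 180 CPM, so that the mean level of the highest class was 7.35 times that of the lowest. In the order of the 14 classes, 9 of the 13 neighbouring pairs had overlapping ranges over the libraries, among them EC-like and B cell-like cells, and FAP-like and tenocyte-like cells overlapped likewise.

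H2-K1 followed a like order, with 1328 CPM in DMSO and 1658 CPM in MVC in T/NK-like cells, 873 and 1274 CPM in B cell-like cells and 1059 and 956 CPM in EC-like cells. FAP-like cells held 310 and 291 CPM, MuSC-like cells 241 and 287 CPM and perineurial-like cells 166 and 244 CPM. H2-D1 differed from it in neutrophil-like cells, which held its highest level, 945 and 1159 CPM, while their H2-K1 stood at 276 and 233 CPM. EC-like cells had 934 and 917 CPM of H2-D1 and MuSC-like cells, the lowest, 225 and 257 CPM.

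The immunoproteasome genes spread over a wider range of classes. Psmb8 stood at 118 CPM in DMSO and 168 CPM in MVC in T/NK-like cells, 107 and 129 CPM in B cell-like cells, 87.2 and 97.0 CPM in macrophage-like cells and 76.0 and 87.7 CPM in EC-like cells. In FAP-like cells it was 24.7 and 31.1 CPM, in MuSC-like cells 10.9 and 17.3 CPM and in tenocyte-like cells 11.4 and 19.9 CPM. Psmb9 ran from 47.5 and 83.7 CPM in B cell-like cells to 3.09 and 2.52 CPM in tenocyte-like cells, a ratio of means of 23.4 that rests on 13 and 11 UMIs in the latter.

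Among the transport genes, Tap1 was highest in EC-like cells, at 52.3 CPM in DMSO and 67.9 CPM in MVC, close to 50.2 and 58.6 CPM in T/NK-like cells, and lowest in MuSC-like cells at 7.28 and 8.64 CPM. Tap2 was also highest in EC-like cells, at 70.9 and 81.5 CPM. Tapbp did not follow the other members. Its levels in FAP-like cells, 118 and 123 CPM, in EC-like cells, 116 and 122 CPM, in tenocyte-like cells, 113 and 121 CPM, and in macrophage-like cells, 118 and 111 CPM, all lay from 111 to 123 CPM, and it was lowest in MuSC-like cells at 30.01 and 41.04 CPM. Tapbp also overlaps Zbtb22 on the same strand, and 4.62% of its 31-base words occur in other genes' transcripts.

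For Nlrc5, Schwann-like cells stood at rank 2 of the classes, and 11 of the 13 neighbouring pairs had overlapping ranges over the libraries. T/NK-like cells held 152 CPM in DMSO and 236 CPM in MVC, Schwann-like cells 143 and 173 CPM, EC-like cells 115 and 172 CPM, macrophage-like cells 104 and 97.5 CPM and B cell-like cells 59.4 and 154 CPM. FAP-like, tenocyte-like and MuSC-like cells all lay between 21.6 and 30.8 CPM. In the Schwann-like class the UMIs came from the larger of 2 clusters, with 165 and 205 CPM, while the smaller cluster held 12.0 and 37.9 CPM on 1 and 5 UMIs. Schwann-like cells thus had EC-like levels of Nlrc5 beside H2-K1 of 303 and 212 CPM and Psmb9 of 10.2 and 7.31 CPM. The 3 cells with most Nlrc5 carried 29.8% and 28.0% of the UMIs of this class. Of Schwann-like cells, 14.2% were marked as doublets. The 9 EC markers used for naming summed to 98.8 and 421 CPM in them. The 6 neutrophil markers summed to 5.11 and 523 CPM, and to 5.96 and 1.68 CPM with doublets removed. The part of these markers was not tested.

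**Figure D1:**
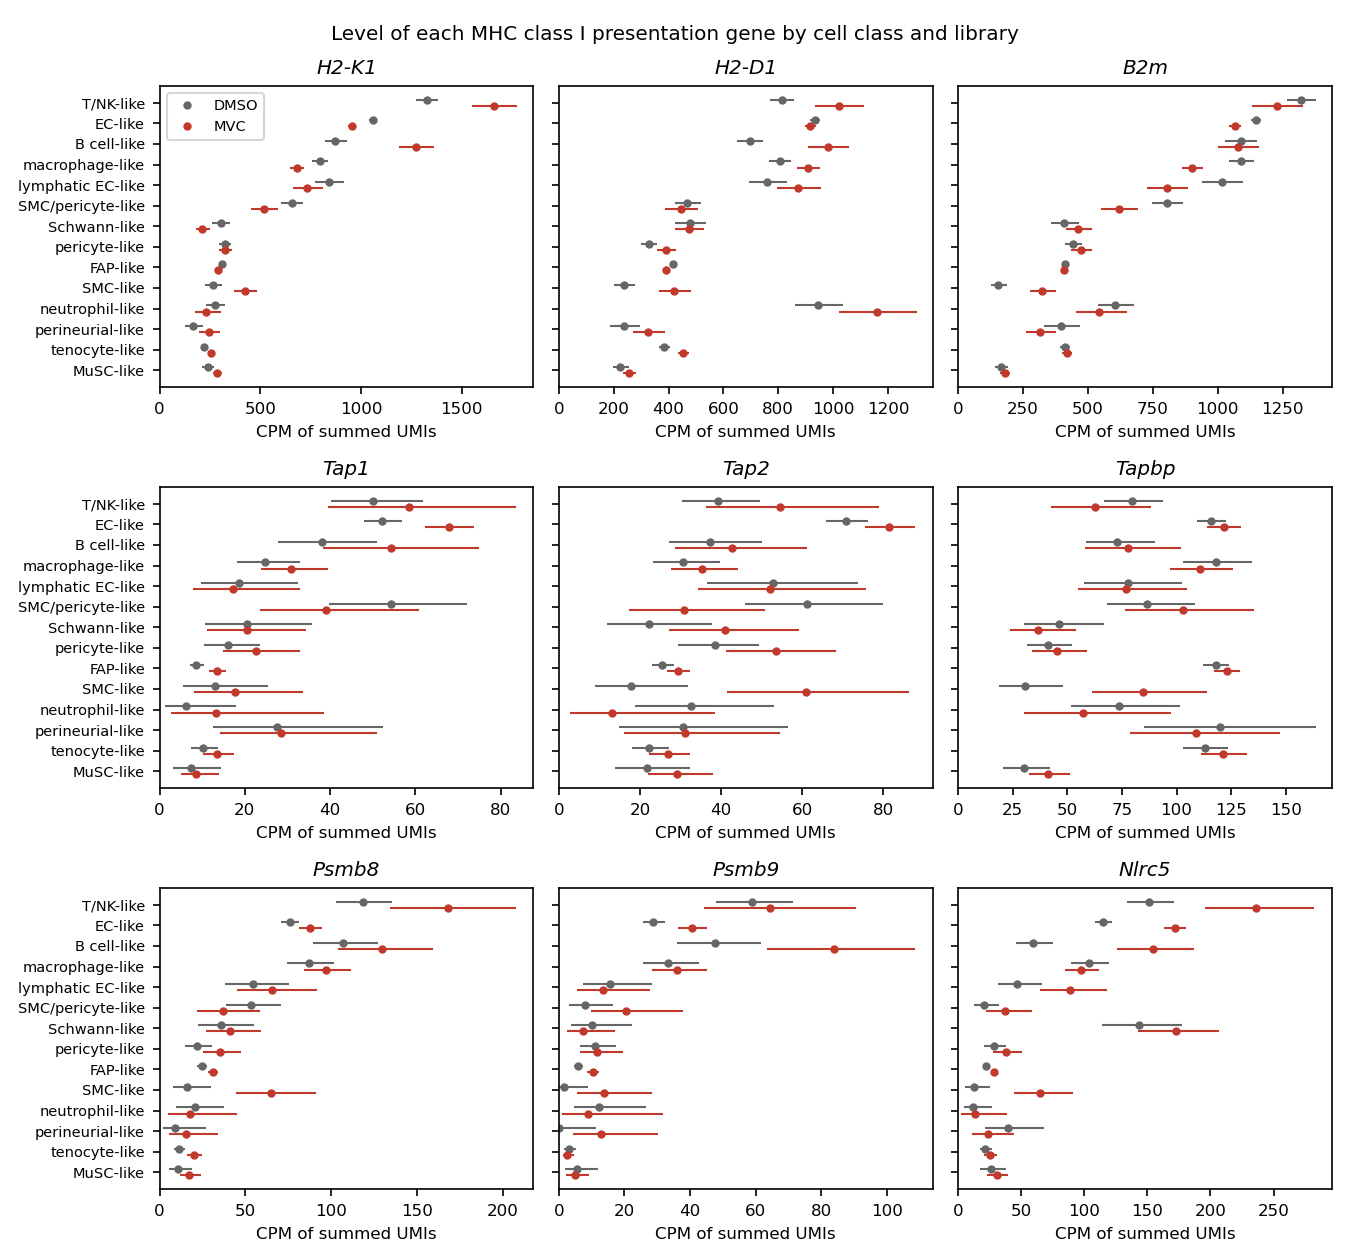
Level of each of the 9 genes in CPM of summed UMIs (x axis, linear, from 0) in 14 cell classes (y axis, ordered by the mean profile of the members). Points are the DMSO (grey) and MVC (red) library and lines are 95% exact Poisson intervals; T/NK-like and EC-like cells stand at the top and MuSC-like cells at the bottom, while Tapbp shows no such order.

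Across the 14 classes, the levels of H2-K1 went with those of Psmb8 (Pearson r = 0.948) and Psmb9 (r = 0.917) and less with Nlrc5 (r = 0.717), while r of Tapbp with the other members lay between -0.02 and 0.42. These coefficients describe 14 points that share the same libraries. The members' mean profile, on the log2(CPM + 10) scale and centred per gene, was 1.05 in T/NK-like, 0.92 in EC-like, 0.82 in B cell-like and 0.59 in macrophage-like cells. It was -0.40 in FAP-like and -0.93 in MuSC-like cells. Of 9499 other genes compared, the 8 with the most similar profile were Aggf1 (r = 0.946), Casp8 (0.913), Psme1 (0.902), Psme2 (0.897), Gtf2f1 (0.870), H2-Q7 (0.868), Daxx (0.863) and Shisa5 (0.857). Psme1 and Psme2 encode the proteasome activator PA28, and H2-Q7 is a nonclassical class I heavy chain.

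In EC-like cells, 2291 in DMSO and 2122 in MVC, B2m, H2-K1 and H2-D1 differed little between libraries, and Nlrc5, Psmb9 and Tap1 were higher in MVC over the class as a whole. The ratio of MVC to DMSO was 0.929 (0.904 to 0.955) for B2m, 0.902 (0.876 to 0.929) for H2-K1 and 0.983 (0.953 to 1.01) for H2-D1. Nlrc5 stood at 1.49 (1.38 to 1.61), Psmb9 at 1.41 (1.20 to 1.65), Tap1 at 1.30 (1.15 to 1.46), Psmb8 at 1.16 (1.04 to 1.28), Tap2 at 1.15 (1.03 to 1.28) and Tapbp at 1.05 (0.964 to 1.14), which turned to -0.08 on the log2 scale as a mean over single cells' CPM. None of the 9 lay past 1.5-fold, the size used here to call a difference among genes with at least 50 UMIs, while 10.3% of the 11596 genes measured in these cells were past it upwards and 3.79% downwards. Nlrc5 lay at that limit, and passed it with doublets removed, at 0.59 on the log2 scale. The median log2 ratio of the members was 0.20, and of all measured genes 0.07.

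The higher Nlrc5 was seen in each of the 5 larger clusters of EC-like cells. In cluster 0, led by Cldn5 and Slc1a1, Nlrc5 stood at 111 CPM in DMSO and 188 CPM in MVC. In cluster 4 it stood at 124 and 234 CPM, in the capillary cluster 2 at 60.6 and 88.3 CPM, in the arterial cluster 5 at 123 and 165 CPM, and in the venous cluster 8 at 154 and 224 CPM. The ratios ran from 1.35 (1.13 to 1.61) in the arterial to 1.88 (1.55 to 2.29) in cluster 4, and each interval lay above 1. Tap1 was less even, with 53.7 and 105 CPM in cluster 0, a ratio of 1.96 (1.59 to 2.41), and 62.5 and 56.5 CPM in the arterial cluster, a ratio of 0.904 (0.681 to 1.20). B2m in cluster 0 was 1361 and 1449 CPM, and in the other 4 of these clusters it was lower in MVC, with ratios of 0.888 to 0.964. In the capillary cluster 2 and in the arterial cluster 5, 5 of the 9 members were lower in MVC, with median log2 ratios of -0.10 and -0.03. EC-like cells were spread unequally over these clusters, with 916 DMSO and 534 MVC cells in cluster 0 and 386 and 647 in cluster 2. Other cell types' markers moved too in EC-like cells: all 9 FAP markers were detected in both libraries and higher in MVC, summing to 21.2 and 68.4 CPM, and the 8 macrophage markers summed to 33.9 and 43.6 CPM. Their part in these results was not tested, and FAP-like cells themselves held 22.1 and 28.6 CPM of Nlrc5.

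**Figure D2:**
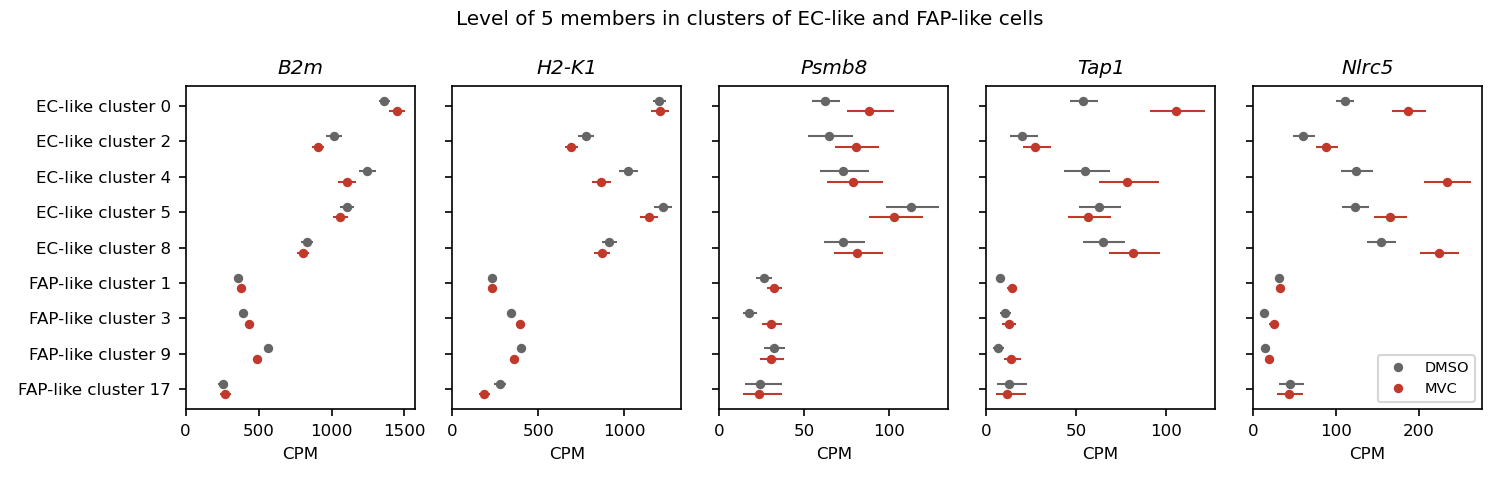
Level in CPM (x axis, linear, from 0) of B2m, H2-K1, Psmb8, Tap1 and Nlrc5 in 5 clusters of EC-like and 4 of FAP-like cells (y axis). Points are the DMSO (grey) and MVC (red) library with 95% exact Poisson intervals; Nlrc5 is to the right in MVC in every EC-like cluster, up to 234 CPM, while B2m and H2-K1 move little.

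The same contrast was visible as a share of cells. With every cell thinned to 2000 UMIs, which left out 322 DMSO and 626 MVC cells of lower depth, 17.3% of DMSO and 23.2% of MVC EC-like cells had a UMI of Nlrc5, 5.9% and 8.7% of Psmb9, 13.1% and 16.2% of Psmb8, and 9.9% and 12.2% of Tap1. For B2m the shares were 84.2% and 83.3%, and for H2-K1 80.7% and 76.9%. Before thinning, at median depths of 3697 and 3231 UMIs, the shares for Nlrc5 were 26.9% and 31.9%. At the same thinned depth 2.9% and 5.2% of MuSC-like cells, the class lowest in H2-D1, B2m, Tap1 and Tapbp, had an Nlrc5 UMI. The 9 genes together gave a median of 7 UMIs per thinned EC-like cell in each library, 2 per FAP-like and 1 per MuSC-like cell, and 27.9% of DMSO and 26.6% of MVC MuSC-like cells had none.

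FAP-like cells, 1216 in DMSO and 1440 in MVC, held lower levels, and Psmb9 and Tap1 differed most between libraries. Psmb9 stood at 5.87 CPM in DMSO and 10.4 CPM in MVC, a ratio of 1.77 (1.33 to 2.36), and Tap1 at 8.62 and 13.6 CPM, a ratio of 1.58 (1.24 to 2.01). These 2 of 9 members lay past 1.5-fold upwards and none downwards, while 11.3% of 12792 genes were past it upwards and 3.35% downwards. Nlrc5 had a ratio of 1.29 (1.11 to 1.51), Psmb8 of 1.26 (1.09 to 1.46), and B2m of 0.985 (0.949 to 1.02), with H2-K1 and H2-D1 both at 0.938. All genes of the class had a median log2 ratio of 0.13, against 0.20 for the members, and scaled to that median Tap1 was at 0.52 on the log2 scale and no longer past 1.5-fold. In the inflammatory cluster 3, led by Ifi205 and Ptx3, Nlrc5 was at 12.9 and 24.9 CPM, a ratio of 1.93 (1.36 to 2.76), Psmb8 at 17.8 and 30.7 CPM, a ratio of 1.72 (1.27 to 2.35), and Tap2 at 20.1 and 30.7 CPM, a ratio of 1.52 (1.14 to 2.05). The largest cluster, cluster 1, held 31.1 and 32.2 CPM of Nlrc5, and there Tap1 was at 7.83 and 14.2 CPM. In the adventitial cluster 9, 6 of 8 measured members were lower in MVC, among them B2m at 567 and 487 CPM, while Tap1 was at 6.42 and 14.01 CPM. In the parenchymal cluster 17, 4 of 5 were lower, among them H2-K1 at 275 and 186 CPM. FAP-like cells were spread unequally over clusters, with 506 DMSO and 770 MVC cells in cluster 1 and 414 and 383 in cluster 3. The 9 EC markers summed to 487 and 486 CPM in FAP-like cells, and 4 plasma cell markers to 0.610 and 15.998 CPM; their part was not tested.

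MuSC-like cells, 145 in DMSO and 258 in MVC, had 6 members with 50 UMIs or more, all with ratios above 1 and none past 1.5-fold, where 9.94% of 6389 genes were past it upwards and 9.23% downwards. H2-K1 had a ratio of 1.19 (1.02 to 1.38), H2-D1 of 1.14 (0.979 to 1.34), B2m of 1.07 (0.895 to 1.29) and Nlrc5 of 1.17 (0.734 to 1.89). Only the interval of H2-K1 lay above 1. With so few UMIs, such as 29 and 57 for Nlrc5, the interval of Nlrc5 includes both 1 and the 1.49 of EC-like cells, and a difference of that size was not detectable at this depth. The 9 FAP markers summed to 90.04 and 362 CPM in MuSC-like cells and the 9 EC markers to 407 and 463 CPM, and their part in these values was not tested. Tap2, at 21.8 and 29.2 CPM, passed 1.5-fold with doublets removed, at 0.66 on the log2 scale.

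Macrophage-like cells, 151 in DMSO and 210 in MVC, had all 9 members measured and none past 1.5-fold, against 9.98% of 7422 genes upwards and 6.28% downwards. B2m had a ratio of 0.827 (0.776 to 0.881), H2-K1 of 0.858 (0.797 to 0.923), H2-D1 of 1.13 (1.05 to 1.21) and Nlrc5 of 0.938 (0.767 to 1.15). The Nlrc5 value turned to 0.12 on the log2 scale without the 3 cells of each library that had most of it, which carried 33.7% of its DMSO UMIs. In macrophage-like cells the 9 EC markers summed to 875 and 347 CPM, with 1 of them higher in MVC, the 6 neutrophil markers to 429 and 717 CPM and the 9 FAP markers to 37.2 and 108 CPM, with 9 higher. Their part in these values was not tested.

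Lymphocytes differed more. In B cell-like cells, 205 in DMSO and 105 in MVC, Nlrc5 was at 59.4 and 154 CPM, a ratio of 2.60 (1.90 to 3.57), and Psmb9 at 47.5 and 83.7 CPM, a ratio of 1.76 (1.20 to 2.60). These were 2 of 9 members past 1.5-fold upwards and none downwards, against 12.4% and 8.37% of 5484 genes. H2-K1 and H2-D1 had ratios of 1.46 (1.33 to 1.60) and 1.41 (1.27 to 1.56), and B2m of 0.991 (0.904 to 1.09). Other markers moved strongly in B cell-like cells: the 4 plasma cell markers summed to 2452 and 632 CPM, and to 2601 and 359 CPM with doublets removed. All 9 FAP markers were higher in MVC, with sums of 89.1 and 497 CPM, and of 18.01 and 11.3 CPM with doublets removed. The part of either list in the B cell-like values was not tested. In T/NK-like cells, 196 and only 61, Nlrc5 was at 152 and 236 CPM, a ratio of 1.56 (1.25 to 1.94). It was the 1 member of 9 past 1.5-fold, with none downwards, against 15.4% and 13.5% of 6054 genes. That was no more than the share of all genes. The ratio of Nlrc5 was 0.40 on the log2 scale without the 3 cells with most Nlrc5 in each library. H2-K1 had a ratio of 1.25 (1.15 to 1.35) there and B2m of 0.929 (0.849 to 1.01). Of the 8 T/NK markers, 3 were higher in MVC, among them Nkg7, a gene of cytotoxic cells, at 122 and 217 CPM, and 5 were lower, among them the T cell receptor gene Trbc2 at 489 and 328 CPM. The 9 EC markers summed to 625 and 1638 CPM in T/NK-like cells, with 8 of them higher in MVC, the 9 FAP markers to 41.5 and 332 CPM, with 9 higher, and the 8 macrophage markers to 79.6 and 13.7 CPM. The part of these markers was not tested.

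Tenocyte-like cells had Psmb8 at 11.4 and 19.9 CPM, a ratio of 1.75 (1.21 to 2.54), the 1 of 8 measured members past 1.5-fold and none downwards, against 8.92% and 5.43% of 9671 genes. In pericyte-like cells Psmb8 was at 21.8 and 35.2 CPM, a ratio of 1.62 (1.003 to 2.618), likewise 1 of 8 and none downwards, against 10.0% and 5.74% of 6972 genes. Pericyte-like cells also held all 9 EC markers at a summed 5063 and 4360 CPM, and 13.0% of them were marked as doublets. With those cells removed the log2 ratio of Nlrc5 went from 0.42 to 1.83, of Tap1 from 0.50 to 1.18, of Tapbp from 0.14 to 1.04 and of Psmb8 from 0.69 to 1.38, with EC markers then at 2482 and 3303 CPM.

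SMC-like cells, 64 in DMSO and 48 in MVC, were the class in which all measured members were past 1.5-fold, 4 of 4 upwards and none downwards, against 15.8% and 10.0% of 3683 genes. B2m was at 156 and 324 CPM, a ratio of 2.08 (1.61 to 2.71), H2-D1 at 237 and 420 CPM, a ratio of 1.78 (1.43 to 2.21), H2-K1 at 264 and 422 CPM, a ratio of 1.60 (1.30 to 1.97), and Tapbp at 30.8 and 84.5 CPM, a ratio of 2.74 (1.56 to 4.99). All 9 EC markers were detected in both libraries and higher in MVC, with sums of 3076 and 4538 CPM, and the 8 T/NK markers summed to 6.48 and 5.89 CPM, with Cd3e, Cd3d and Cd3g at 0. The part of these markers in this result was not tested. As a mean over single cells' CPM, H2-K1 was at 0.47 and H2-D1 at 0.58 on the log2 scale, so that H2-K1 and H2-D1 were then no longer past 1.5-fold.

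**Figure D3:**
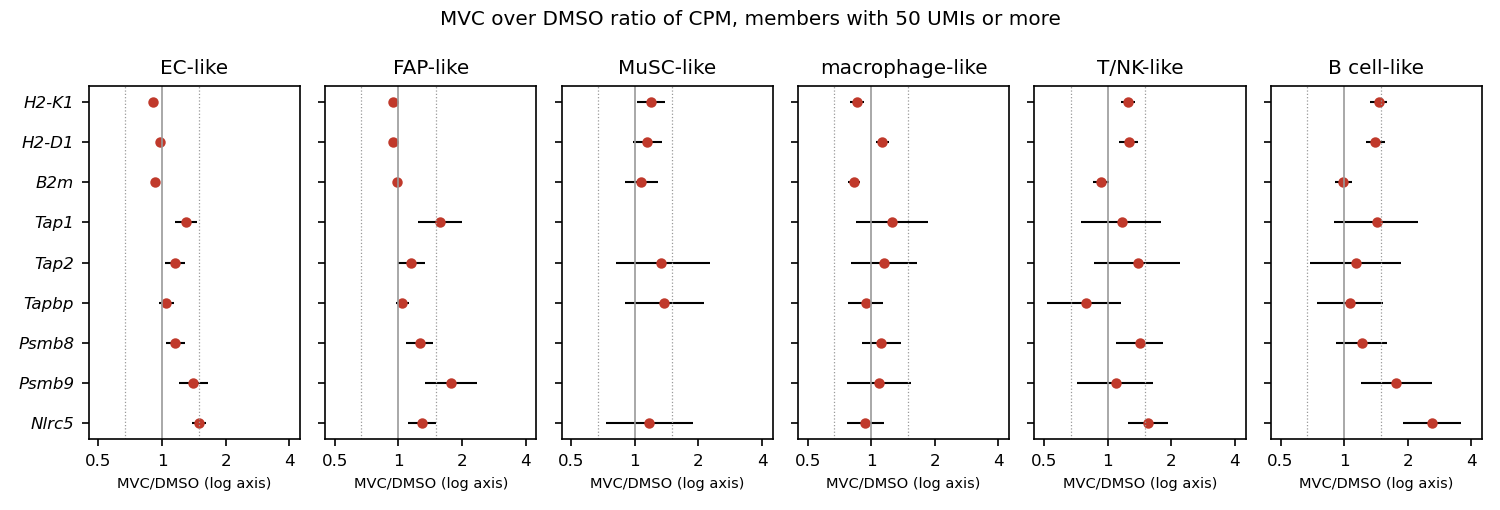
Ratio of MVC to DMSO CPM (x axis, log scale) for each member with 50 UMIs or more, in 6 cell classes. Points are ratios, lines are 95% exact intervals for counting error, the solid line marks 1 and the dotted lines mark 1.5-fold; Nlrc5 lies at 1.49 in EC-like and 2.60 in B cell-like cells, while B2m lies between 0.827 and 1.07 in all 6.

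Over the 14 classes, Nlrc5 had 50 UMIs or more in 10 and was higher in MVC in 9 of these, with the interval above 1 in 5. Psmb8 was higher in 8 of 9 classes and Psmb9 in 5 of 5. B2m was measured in all 14 and was higher in 5, with the interval above 1 in 1 class, SMC-like cells, and below 1 in 4. H2-K1 was higher in 7 of 14, and H2-D1 in 10 of 14, with the interval above 1 in 9 and below 1 in 1. In lymphatic EC-like cells 1 of 7 measured members was past 1.5-fold upwards and none downwards, against 9.43% and 11.6% of 3913 genes. That member was Nlrc5, at 46.6 and 88.6 CPM, a ratio of 1.90 (1.18 to 3.12), and B2m was at 1015 and 803 CPM in these cells. Their EC markers summed to 4962 and 3458 CPM, with 8 of 9 lower in MVC, their macrophage markers to 180.1 and 77.1 CPM and their FAP markers to 14.0 and 63.6 CPM, and the part of these was not tested. In SMC/pericyte-like cells 1 of 7 measured members was past 1.5-fold downwards and none upwards, against 9.82% and 10.3% of 4146 genes. That member was Tap2, at 61.2 and 30.8 CPM in these cells, a ratio of 0.504 (0.264 to 0.907), on 53 DMSO UMIs. Their FAP markers summed to 200 and 495 CPM and their EC markers to 2160 and 1595 CPM, and the part of these was not tested. All classes share the same 2 libraries, so these are not independent repeats.

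The switch of catalytic subunits was read as the immunoproteasome share, the UMIs of Psmb8, Psmb9 and Psmb10 in percent of those of all 6 catalytic subunits, with Psmb5, Psmb6 and Psmb7 as the constitutive ones. It was highest in lymphocytes and endothelial cells and low in MuSC-like and tenocyte-like cells. EC-like cells had 50.3% (48.4 to 52.1, exact Clopper-Pearson) in DMSO and 57.0% (55.0 to 59.0) in MVC, and T/NK-like cells 53.4% (49.6 to 57.2) and 62.9% (56.3 to 69.3). B cell-like cells had 51.4% and 58.4%, macrophage-like cells 40.5% and 43.3%, FAP-like cells 27.5% and 29.3%, tenocyte-like cells 13.5% and 15.9% and MuSC-like cells 12.2% and 15.5%. Of these 7 classes the intervals of the libraries lay apart in EC-like cells and overlapped in the other 6. They also lay apart in SMC-like cells, at 12.5% (7.2 to 19.8) and 36.2% (28.2 to 44.8), the cells with the EC markers given above. Within EC-like cells the venous cluster went from 43.9% (39.9 to 47.9) to 53.1% (48.4 to 57.8) and cluster 0 from 48.5% (45.03 to 51.96) to 56.9% (52.2 to 61.4), with intervals apart. The capillary cluster 2 went from 51.9% to 57.3%, cluster 4 from 52.1% to 57.0% and the arterial cluster from 57.4% to 60.1%, all with overlapping intervals. With Psmb8 and Psmb9 set against Psmb5 and Psmb6 alone, the arterial cluster went the other way, from 66.0% to 62.5%. In EC-like cells Psmb5 was at 30.1 and 24.5 CPM, a ratio of 0.813 (0.68 to 0.97).

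**Figure D4:**
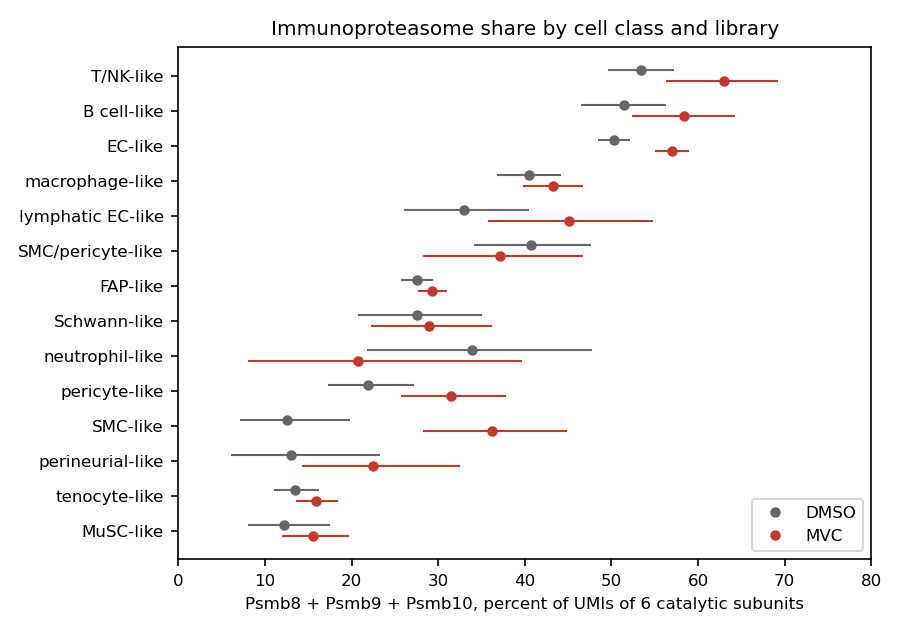
Share of immunoproteasome subunits in percent of the UMIs of 6 catalytic subunits (x axis, from 0) by cell class (y axis). Points are the DMSO (grey) and MVC (red) library with 95% Clopper-Pearson intervals; EC-like cells sit at 50.3% and 57.0% and MuSC-like cells at 12.2% and 15.5%.

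Interferon response genes stood higher in MVC in EC-like cells by more than the class I genes did. Of the type I interferon-stimulated genes, 18 of 20 measured were past 1.5-fold upwards and none downwards, with a median log2 ratio of 1.04. Of the interferon-gamma response genes, 12 of 20 were past it upwards and none downwards, with a median of 0.70. Among all genes measured in EC-like cells, 10.3% were past it upwards and 3.79% downwards. Isg15, a ubiquitin-like modifier, was at 150 and 239 CPM, Ifih1, a sensor of viral RNA, at 40.4 and 81.9 CPM, Gbp2, an interferon-induced GTPase, at 99.0 and 193 CPM, and its relative Gbp5 at 60.0 and 165 CPM, a ratio of 2.75 (2.50 to 3.03). The chemokine Cxcl9 was at 65.2 and 180 CPM and Cxcl10 at 87.9 and 194 CPM. In FAP-like cells 7 of 18 interferon-gamma response genes were past 1.5-fold upwards and none downwards, with Gbp2 at 66.2 and 103 CPM and Iigp1 at 32.4 and 62.2 CPM. The type I list had 1 of 16 upwards, Cmpk2 at 2.06 and 4.31 CPM, and 1 downwards, Rsad2 at 7.93 and 3.73 CPM. Among all genes measured in FAP-like cells, 11.3% were past 1.5-fold upwards and 3.35% downwards. Scaled to the median gene, 3 of the 18 interferon-gamma response genes of FAP-like cells were past 1.5-fold. In MuSC-like cells 5 of 11 measured interferon-gamma response genes were past it upwards, among them the transcription factor Irf1 at 50.9 and 98.3 CPM. None was past it downwards, against 9.94% of all genes upwards and 9.23% downwards. With doublets removed, 3 of 8 were past it upwards. The median log2 ratio of this list was -0.70 in Schwann-like, -0.25 in SMC/pericyte-like and, on 2 genes, -1.03 in neutrophil-like cells. It was 0.02 in T/NK-like cells and higher than that in the other classes.

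Among the factors that act on class I promoters, the interferon regulatory factor Irf1 in EC-like cells was at 629 and 749 CPM and Rfx5, the partner of Nlrc5 at the promoter, at 5.10 and 6.45 CPM. Of the interferon ligands and receptors, none of 10 measured in EC-like cells was past it, and the receptor gene Ifngr1 was at 143 and 114 CPM. The ligand gene Ifng had no UMI in EC-like, macrophage-like or MuSC-like cells of either library, which allows up to 0.288 and 0.365 CPM in EC-like cells. In T/NK-like cells Ifng was at 12.7 and 82.0 CPM, a ratio of 6.47 (3.77 to 11.4), from 14 of 196 and 8 of 61 cells, and 3 cells carried 35 of its 42 UMIs in MVC. Ifnb1 was at 24.8 and 9.99 CPM in macrophage-like cells.

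None of the 10 other class I heavy chains measured in EC-like cells was past 1.5-fold, with a median log2 ratio of 0.31, and H2-Q4 stood at 406 and 453 CPM and H2-T23, the ligand of an inhibitory NK receptor, at 70.9 and 91.6 CPM. The 14 constitutive proteasome genes had a median log2 ratio of -0.07 and none past 1.5-fold. None of 12 loading and trimming genes was past it, and the chaperones Calr, at 255 and 190 CPM, and Canx, at 249 and 199 CPM, were lower in MVC. MHC class II genes were scarce in EC-like cells, and 5 of 5 measured were past 1.5-fold upwards, with Cd74 at 7.40 and 13.5 CPM. Of all genes measured in EC-like cells, 10.3% were past it upwards and 3.79% downwards. In FAP-like cells 2 of 11 other heavy chains were past it upwards, H2-Q6 and H2-Q7 at 4.88 and 7.45 CPM and at 3.89 and 7.09 CPM, and Cd1d1 downwards at 4.12 and 2.19 CPM. Of all genes measured in FAP-like cells, 11.3% were past it upwards and 3.35% downwards. Psme2, at 29.3 and 46.8 CPM, was the 1 of 12 loading and trimming genes past it there, no more than the share of all genes. Class II genes were 5 of 5 upwards, with Cd74 at 1.98 and 9.57 CPM beside the plasma cell markers named above. Scaled to the median gene, 1 of 11 heavy chains, none of 12 loading and trimming genes and 4 of 5 class II genes were past 1.5-fold upwards. With doublets removed, 3 class II genes were left with 50 UMIs, and their median log2 ratio was 1.18 in place of 1.89. Of 10 interferon ligands, receptors and signalling genes in FAP-like cells, the signalling inhibitor Socs3 was past it downwards, at 645 and 332 CPM, against 3.35% of all genes.

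**Figure D5:**
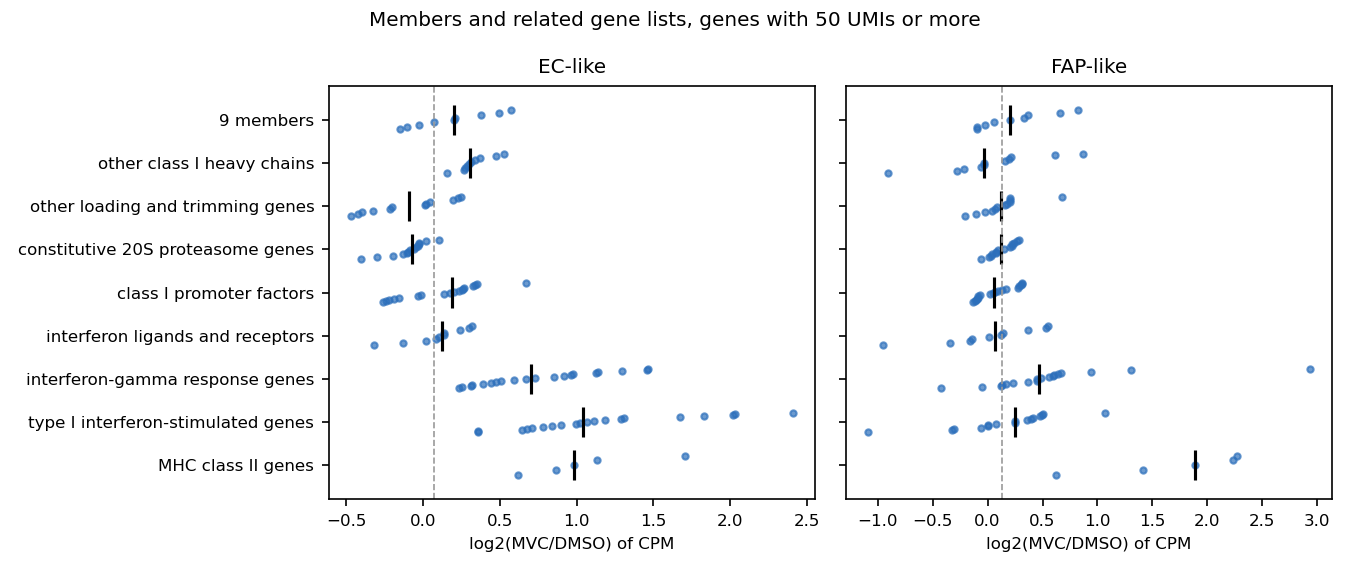
Log2 ratio of MVC to DMSO CPM (x axis) for the 9 members and the genes of 8 related lists with 50 UMIs or more (y axis), in EC-like and FAP-like cells. Each point is a gene, black bars are list medians and the dashed line is the median of all measured genes; in EC-like cells the medians of the interferon lists, 1.04 and 0.70, lie to the right of the members' 0.20.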

How the data were processed

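Live mononuclear cells of limb muscle were profiled on the 10x platform in 1 DMSO and 1 MVC library. Per the labels, Cell Ranger 7.0.0, Seurat 5.0.1 and the mm10 build were used by the submitters. The deposited matrices hold whole UMI counts per gene and cell, raw and not normalized by the authors. The kit chemistry is not given in the sources used here. Members, lists, tests and alternatives were chosen with earlier results of these data known.

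Barcodes needed 500 or more genes and no more than 10% mitochondrial UMIs, and were scaled to 10000 UMIs and logged. Clustering (scanpy 1.11.5, leidenalg 0.10.2) used 2000 variable genes without the members and lists, 30 principal components, 20 neighbours and resolution 1. A cluster took a class name from at least 3 markers with a log2 difference of 1 or more in at least 20% of its cells. Doublets were scored against simulated pairs (4.34% of DMSO and 4.36% of MVC cells) and kept, except where stated. UMIs were summed per class and library, with exact Poisson intervals for CPM and exact conditional intervals for ratios. No p-value was computed, and UMI totals per library were 38748234 and 35518029. Named genes were all members, up to 4 genes by mean CPM among those past 1.5-fold per list, a few further list genes picked after their values were seen, and the 8 genes of most similar profile. The ratio step was tested on simulated data. Annotation was GENCODE M21, matching 32158 of 32285 gene IDs. Some items are not reported here.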

Additional observations from a re-analysis of the deposited data

How the results depend on the processing

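The median log2 ratio of the members stayed above 0 under all alternatives run and lay between 0.13 and 0.22 in EC-like, 0.07 and 0.22 in FAP-like, 0.11 and 0.43 in MuSC-like and 0.07 and 0.18 in macrophage-like cells. In FAP-like cells it went from 0.20 to 0.07 when scaled by the median ratio, and in MuSC-like cells from 0.24 to 0.11 with doublets removed and to 0.43 without the 3 cells with most UMIs of each gene. The number of members past 1.5-fold upwards, main values 0, 2, 0 and 0 in that order, depended on the setting. In EC-like cells it was 1 with doublets removed and 1 as a mean of per-cell CPM, each time Nlrc5. In FAP-like cells it was 1 when scaled by the median ratio, and 0 for a call past 2-fold. In MuSC-like cells it was 1 with doublets removed, 2 as a mean of per-cell CPM, 1 with a minimum of 20 UMIs and 2 without the 3 cells with most UMIs of the gene, and in macrophage-like cells 1 without those cells. No member was past it downwards in these 4 classes under any setting. Of 71 single ratios in 9 classes, 4 moved by over 1.5 times with doublets removed, all in pericyte-like cells. As a mean of per-cell CPM 5 of these ratios changed sign, and 4 when scaled by the median ratio, among them Tapbp in FAP-like cells, to -0.07 on the log2 scale. With doublets removed and under a stricter cell filter 1 changed sign each time, and without the top cells 2. B2m changed sign under some setting in FAP-like, tenocyte-like, pericyte-like and B cell-like cells. None of these ratios that was past 1.5-fold changed sign. Lymphatic EC-like, SMC/pericyte-like, Schwann-like, neutrophil-like and perineurial-like ratios were not rerun. Leaving out the low-UMI endothelial cluster moved no EC-like ratio by more than 0.01 on the log2 scale. The last alternative and the removal of top cells were chosen after seeing the data. No paired analysis was possible because each group holds 1 library and the labels carry no replicate numbers. Depth limited the small classes: only 3 members had 50 UMIs or more in neutrophil-like and 4 in SMC-like and perineurial-like cells.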

Other observations

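Cluster 4 of the EC-like cells was led by Patl2 and Trim69, the neighbours of B2m on chromosome 2. Patl2 (chr2:122120108-122186189, minus strand) overlaps B2m on the opposite strand, Trim69 (chr2:122160700-122179027, plus) starts 7617 bases beyond its end, and Terb2 (chr2:122186272-122206397, plus) follows. In cluster 4 Trim69 stood at 404 CPM in DMSO and 542 CPM in MVC, Patl2 at 341 and 434 CPM and Terb2 at 127 and 109 CPM. In cluster 0 Trim69 was at 117 and 136 CPM, Patl2 at 77.1 and 84.1 CPM and Terb2 at 5.57 and 4.98 CPM. B2m itself did not stand out, at 1244 and 1105 CPM in cluster 4 and 1361 and 1449 CPM in cluster 0. Among the 8 genes whose class profile was most like that of the members, Daxx is also a close neighbour of Tapbp on chromosome 17.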
